A study of Mus musculus with 16 samples.

Results

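The genes described here encode the subunits of potassium, sodium and calcium channels. They are the 133 Ensembl genes of the count table, of 53464, whose symbols start with Kcn and further letters and a number, with Scn and a number, or with Cacna, Cacnb or Cacng. A non-coding transcript (Kcnq1ot1) and 4 antisense transcripts were left out. All 133 are annotated as protein-coding, with 93 in the potassium, 14 in the sodium and 26 in the calcium class. By symbol, not every gene of the potassium class forms a channel that is gated by voltage, since the inward rectifiers (Kcnj, 15 genes) and the two-pore channels (Kcnk, 14 genes) are gated mainly in other ways. The family named ion-activated here (Kcnma, Kcnmb, Kcnn, Kcnt and Kcnu, 12 genes) was grouped by symbol. It holds channels that are not gated by voltage alone, and their subunits. Levels of the 133 genes were measured by RNA-seq in 16 libraries of medullary thymic epithelial cells (mTEC). Mature cells were sorted by high and immature cells by low MHC class II among CD45-, EPCAM+, Ly51- and UEA+ cells. The cells came from 8 mice aged 4 to 6 weeks, each of which gave 1 mature and 1 immature library. In the Rbfox1 line and in the Rbfox2 line, 2 mice lacked the splicing factor in thymic epithelial cells (tKO, floxed gene with Cre from the Foxn1 locus) and 2 control mice carried the floxed gene without Cre, with 1 female and 1 male mouse in each group. The mice were C57BL/6 by the labels and of a mixed 129S2/Sv and C57BL/6J background by the methods of the study. Cre was present in every tKO mouse and in no control, so that effects of Cre and of the lost gene cannot be told apart.

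Voltage-gated channels open and close with the membrane potential. Sodium channel pores start the action potential, calcium channel pores (Cacna1) let in the calcium that drives contraction, secretion and transcription, and potassium channels bring the membrane back to rest or hold it there. Pores work with smaller subunits that set their number at the surface and their timing, among them the sodium beta subunits, the calcium beta, alpha2delta and gamma subunits, and the Kcne, Kcnip and Kcnab proteins of potassium channels. Most of these genes are known from nerve, muscle, heart and secretory cells. Mature mTEC are known for transcribing many genes of other tissues at low level, in part through AIRE, which exposes developing T cells to the antigens of those tissues.

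The libraries held 3737884 to 4636367 counts in mature and 1506134 to 2430287 counts in immature mTEC, so that depth and population went together. Raw counts of the targeted genes were lower in the tKO libraries of their line without reaching 0. In mature mTEC, Rbfox1 had 225 and 247 counts in the controls and 126 and 156 counts in the tKO mice of its line, and Rbfox2 had 231 and 247 counts in the controls and 35 and 70 counts in the tKO mice. The immature libraries of the Rbfox1 line differed less in Rbfox1, at 381 and 391 counts without and 327 and 299 with Cre. Their totals were also lower with Cre, at 2177615 and 1908725 against 2309725 and 2430287. Rbfox2 stood at 195 and 157 counts in immature controls of its line and at 54 and 34 in tKO mice. Between tKO and control mice, neither targeted gene was called in the Rbfox1 line, against 1 of 2 in each population of the Rbfox2 line. Of 6 markers of mature mTEC, 5 were called higher in mature cells of control mice and none lower, and of the 5 tested markers of immature mTEC all were called lower. Marker genes of fibroblasts differed between the lines in immature mTEC. Their summed level (5 genes, none at 0) was 294 to 572 CPM (counts scaled to a common library size with TMM factors) in the Rbfox1 line and 1447 to 2170 CPM in the Rbfox2 line, against 348 to 601 CPM in all mature libraries. Endothelial markers (4 genes, none at 0) summed to 26.6 to 67.4 CPM and 68.9 to 212 CPM in immature mTEC of the Rbfox1 and Rbfox2 lines. For some of the genes whose change between the populations differed between the lines, values within each line are also given.

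Nearly all of these channel genes had counts in mature mTEC, and fewer had counts in immature mTEC. Over all reads, 117 of the 133 genes had a count in every mature library, 71 in every immature library and 70 in all 16. Every library was then thinned at random to 1506134 counts, the total of the smallest, so that depth was equal. At this depth 120.4 ± 1.85 of the 133 genes (SD, n = 8 libraries) had at least 1 count in mature mTEC, against 95 ± 5.40 in immature mTEC. Each of the 8 mice had more of them in its mature library, by 20 to 35 genes. In percent, this was 88.0% to 92.5% of the genes in mature and 63.9% to 76.7% in immature libraries, and the populations did not overlap. Among all 21942 protein-coding genes the same count gave 78.3% to 80.0% and 66.0% to 69.3%. In these bulk libraries, fewer cells that express a gene and less RNA per cell cannot be told apart.

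The classes differed in how far detection fell in immature mTEC. At equal depth, potassium channel genes went from 83.1 ± 1.36 of 93 in mature to 63.0 ± 3.70 in immature libraries, and calcium channel genes from 24.9 ± 1.13 of 26 to 20.5 ± 1.604, each with more genes in the mature library of 8 of 8 mice. Sodium channel genes were detected in nearly equal numbers, with 12.4 ± 0.74 and 11.5 ± 0.76 of 14, and the mature library held more in 6 of 8 mice. Among the families, the calcium gamma subunits (Cacng1 to Cacng8), which include partners of the skeletal muscle calcium channel and of AMPA receptors, showed 7.13 ± 1.13 of 8 genes in mature and 3.88 ± 1.36 in immature libraries. All 12 auxiliary potassium channel genes were seen in each mature library, against 5 to 10 in immature libraries. All 4 calcium beta subunit genes were seen in each library but 1, a mature control library of the Rbfox2 line with 2 of them.

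**Figure D1:**
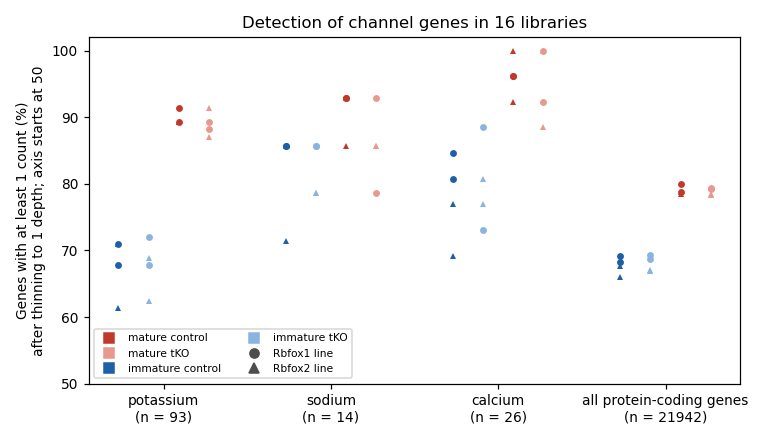
Share of genes with at least 1 count in each library after thinning to equal depth (vertical axis in %, starting at 50), for the potassium, sodium and calcium classes and for all protein-coding genes. Colours give population and genotype and symbols give the line, and some points of equal value cover each other. Mature libraries lie at 81 to 85 of 93 potassium genes and immature libraries at 57 to 67.

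Genes with no count in any of the 8 immature libraries, before thinning, included Kcna10, Kcnc2, Kcns2 and Kcnv2 (voltage-gated potassium channels or their silent subunits), the sodium-activated channel gene Kcnt2, the two-pore channel gene Kcnk15 and the gamma subunit gene Cacng3. These had counts in 4 to 8 mature libraries, with 4 (Kcns2) to 89 (Kcnt2) counts in all. Cacnb4, a beta subunit of neuronal calcium channels, was the one gene with counts in all 8 immature but not in all 8 mature libraries, with 57 counts in total.

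Levels of different genes were compared as CPM, scaled with TMM factors, per kb of annotated exon. A few genes held most of the signal. In mature mTEC of control mice, 51 of 93 potassium, 5 of 14 sodium and 12 of 26 calcium channel genes had a mean level below 1 CPM per kb, and in immature mTEC 71, 9 and 16 did. The summed level of the potassium class was 329 ± 15.9 CPM per kb in mature and 260 ± 18.5 in immature libraries (SD, n = 8), and that of the calcium class 99.4 ± 9.82 and 50.1 ± 4.39. Both sums were higher in the mature library of 8 of 8 mice. The sodium class went the opposite way, with 29.4 ± 1.23 CPM per kb in mature and 66.2 ± 11.2 in immature libraries, and its sum was lower in the mature library of 8 of 8 mice. This rested on 2 genes, Scn3b and Scn7a, without which the other 12 summed to 26.2 ± 1.30 CPM per kb in mature and 24.8 ± 2.02 in immature libraries.

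Within the potassium class Kcnj15, an inward rectifier known from kidney and stomach (chr16:95257558-95300260, GRCm38, plus strand), had the highest level in both populations. It stood at 79.4 ± 7.34 CPM per kb in mature and 87.8 ± 13.8 in immature mTEC of control mice (SD, n = 4). Its share of the summed potassium level was 23.9% ± 1.09 in mature and 33.5% ± 3.22 in immature libraries (n = 8). Kcnip3 (DREAM or calsenilin), a calcium-binding partner of Kv4 channels that also acts on transcription, had 31.8 ± 4.18 CPM per kb in mature and 44.0 ± 5.13 in immature mTEC. In mature mTEC the order was Kcnj15, Kcnk6 (41.5 ± 3.07), Kcnip3, Kcnh6 (25.8 ± 5.05), Kcnh3 (12.9 ± 2.45) and Kcnk16 (8.68 ± 0.61). Kcnip3 and Kcnh6 had overlapping ranges, as their 4 libraries reached from 25.6 to 34.9 and from 21.4 to 31.7 CPM per kb. In immature mTEC Kcnip3 was followed by Kcnq3 (24.0 ± 2.70), Kcnk6 (13.9 ± 5.09), the large-conductance calcium-activated channel gene Kcnma1 (11.8 ± 1.51) and the small-conductance channel gene Kcnn3 (6.82 ± 1.20). Kcnk6 (8.75 to 19.97) and Kcnma1 (9.86 to 13.3) overlapped there.

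The leading sodium genes changed between the populations. Scn4b, a beta subunit, was highest in mature mTEC of control mice, with 7.33 ± 0.9997 CPM per kb, followed by the beta subunit gene Scn2b (4.36 ± 0.71) and by Scn9a (4.15 ± 0.50), the Nav1.7 pore of pain-sensing neurons. The ranges of Scn2b (3.39 to 5.10) and Scn9a (3.72 to 4.87) overlapped. In immature mTEC Scn3b, a further beta subunit, led with 26.7 ± 7.96 CPM per kb, before Scn7a (14.6 ± 4.93), the atypical Nax channel linked to sodium sensing, and Scn4b (11.4 ± 1.88). Scn7a (9.68 to 20.03) overlapped with both neighbours in this order, as Scn3b ranged from 18.9 to 36.4 and Scn4b from 8.77 to 13.2.

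Among calcium channel genes, the beta subunit gene Cacnb3 and the pore gene Cacna1b (Cav2.2, the N-type channel of nerve terminals) came first and second in both populations of control mice. Cacnb3 had 32.4 ± 2.14 CPM per kb in mature and 21.3 ± 2.42 in immature mTEC of control mice, and Cacna1b had 19.99 ± 4.30 and 5.69 ± 1.59. They were followed in mature mTEC by Cacna2d2 (7.20 ± 1.08), an alpha2delta subunit, and Cacna1s (4.90 ± 0.44), the pore of skeletal muscle. In immature mTEC they were followed by the T-type pore gene Cacna1h (4.11 ± 1.26) and the beta subunit gene Cacnb1 (3.42 ± 1.06). Cacna1b (3.92 to 7.63) and Cacna1h (2.61 to 5.35) overlapped there, as did Cacna1h and Cacnb1. In both immature tKO libraries of the Rbfox2 line Cacna1h stood above Cacna1b, with 2.86 and 3.47 against 2.59 and 2.50 CPM per kb.

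**Figure D2:**
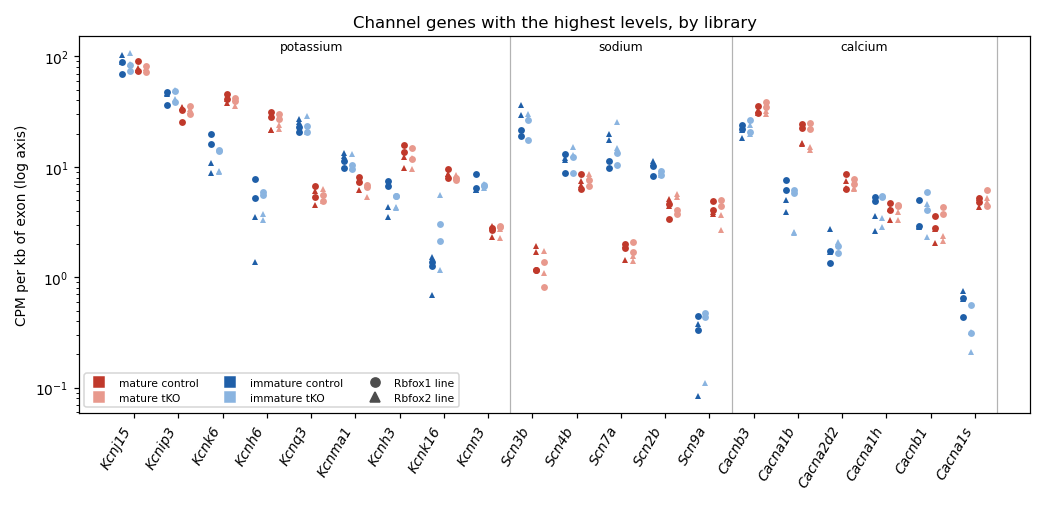
Level of the channel genes with the highest means in mature or immature mTEC, in each of the 16 libraries, as TMM-scaled CPM per kb of exon on a log axis. Colours give population and genotype and symbols the line. The library of the Rbfox2 line in which Scn9a had 0 counts is not drawn. Scn3b lies at 17.7 to 36.4 in immature and 0.815 to 1.93 in mature libraries.

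Mature and immature mTEC of control mice were compared with edgeR's quasi-likelihood test over all rows of the table that passed a filter on low counts, and a gene was called at an adjusted p under 0.05 and a log2 fold change beyond 1. The filter kept 93 of the 133 channel genes. Of these, 57 were called higher in mature mTEC, 8 were called lower and 28 were not called. Over all 16750 rows tested, 37.8% were called, 26.8% higher and 11.1% lower. A gene can pass the filter through its mature libraries alone, and such a gene differs by that choice, so the count of 57 is a description. A separate fit, made on the rows with at least 10 counts in all 8 libraries, held 29 channel genes and called 6 of them higher and 6 lower, where 9.66% of its 11071 rows were called higher and 9.79% lower. Kcnh7 was not called in that fit. Among all 133 genes, tested or not, the level was higher in the mature library of all 4 control mice for 79 genes and lower in all 4 for 17. The matching count over all rows is not given here, so these numbers describe the channel genes alone. Markers of other cells moved with the populations too, in both directions. Those of nerve and glia (5 genes, none at 0) summed to 33.3 to 56.5 CPM in mature and 4.88 to 19.4 CPM in immature mTEC, with 4 of 5 called higher. Those of thymocytes and blood (8 genes, none at 0) summed to 50.6 to 64.1 and 5.58 to 23.7 CPM, with 4 of 4 tested called higher. Neuroendocrine markers (6 genes, with Neurod1 at 0) summed to 495 to 631 and 166 to 378 CPM, with 1 called higher and 1 lower. Pericyte and smooth muscle markers (4 genes, none at 0) summed to 1048 to 1254 and 2199 to 3335 CPM, with 1 called higher and 2 lower. Thymic tuft markers (5 genes, none at 0) summed to 141 to 223 CPM in mature and 389 to 763 CPM in immature mTEC, with 4 of 5 called lower. Of the fibroblast markers 3 of 5 were called lower and 1 higher, and of the endothelial markers 3 of 4 lower and none higher. Their part in these results was not tested.

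In the potassium class 38 of 62 tested genes were called higher and 5 lower in mature mTEC. The voltage-gated pores gave 17 higher and 3 lower of 27 tested, the auxiliary subunits 7 and 0 of 9, the inward rectifiers 4 and 0 of 9, the two-pore channels 5 and 1 of 8, and the ion-activated channels 5 and 1 of 9. In the sodium class 6 of 8 tested pores were called higher and 1 lower, while 2 of 3 tested beta subunits were called lower and none higher. In the calcium class 7 of 9 pores, 3 of 4 alpha2delta and 3 of 4 gamma subunits were called higher, 0 of 3 beta subunits were called, and no gene was called lower. The median log2 fold change was 1.35 for the potassium, 1.597 for the sodium and 1.70 for the calcium genes tested, beside 0.05 over all rows. Of these tested genes, 17 of 62 potassium, 4 of 11 sodium and 9 of 20 calcium genes had at least 10 counts in every immature library. Others could pass the filter through their mature libraries, so these counts and medians are a description and no measure of a rise of a class.

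The potassium channel genes called lower in mature mTEC were Kcnk2, Kcnq3, Kcnn3, Kcnh1 and Kcnh7. Kcnk2 (TREK-1) is a two-pore channel that responds to stretch and lipids (chr1:189207930-189402273, GRCm38, minus strand). In control mice it had 23.1, 23.7, 32.0 and 26.4 CPM in immature and 2.74, 1.49, 4.19 and 2.94 CPM in mature mTEC. Every mature library lay below every immature one, and the log2 fold change was -3.22 (SE 0.23, adjusted p = 3.14e-10), which is 9.34-fold lower in mature mTEC. Kcnk2 overlaps on its own strand with the pseudogene Pdcd5-ps, which had 495 counts in total, so part of the Kcnk2 counts is uncertain. Kcnq3, a subunit of the neuronal M-current (chr15:65986387-66286642, GRCm38, minus strand), had 306 to 396 CPM in immature and 66.1 to 98.6 CPM in mature libraries of the 4 control mice. This was 4.22-fold lower in the mature cells (log2 fold change -2.08, SE 0.09, adjusted p = 3.53e-13), again without overlap.

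Kcnn3, the SK3 channel opened by calcium, had 64.0 to 90.0 CPM in immature and 24.2 to 30.3 CPM in mature mTEC of control mice. It fell by 1.34 on the log2 scale (SE 0.12, adjusted p = 9.04e-09). Kcnh1 (ether-a-go-go) had 20.01 to 35.2 and 8.15 to 12.6 CPM, with a log2 fold change of -1.19 (SE 0.19, adjusted p = 2.28e-05), and Kcnh7 (an Erg channel) had 8.98 to 12.9 and 4.27 to 6.53 CPM, with a log2 fold change of -1.02 (SE 0.25, adjusted p = 0.0014). Both stood lower in the mature library of 4 of 4 control mice without overlap. Neither was called in the Rbfox1 line alone, where the log2 fold change was -0.89 for Kcnh1 and -0.997 for Kcnh7, short of the fold threshold. Kcnh1 and Kcnh7 overlap with Hhat and Gca on the opposite strand, and no source used here says whether reads were counted by strand.

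The 5 potassium channel genes with the largest rise in mature mTEC, by edgeR's log2 fold change averaged over the lines, were near 0 in immature mTEC. Kcne2, an auxiliary subunit of potassium channels in stomach and heart (chr16:92292389-92298129, GRCm38, plus strand), had 0 counts in all 4 immature and 39, 39, 48 and 59 counts in the 4 mature libraries of control mice. It was at least 28.7-fold higher in mature mTEC when 3 counts over the 4 immature libraries are taken as the floor (adjusted p = 3.08e-08). Kcnip1, a Kv4 channel partner, had 0 counts in immature and 11, 11, 14 and 21 counts in mature libraries and was at least 8.85-fold higher (adjusted p = 5.17e-05). Its gene overlaps on the opposite strand with Kcnmb1 and on its own strand with 4930469K13Rik, so part of its counts is uncertain.

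The two-pore channel genes Kcnk9 (TASK-3) and Kcnk10 (TREK-2) summed to 158 and 148 counts in mature and to 3 and 4 counts in immature mTEC of control mice. After scaling the ratio was 24.5 for Kcnk9 (95% counting interval 8.24 to 120) and 17.2 for Kcnk10 (6.59 to 64.1), with adjusted p = 1.91e-07 and 5.33e-07. Kcnmb3, a beta subunit of the large-conductance channel, had 55 counts in mature and 1 in immature mTEC, a ratio of 25.6 (4.41 to 1030, adjusted p = 1.95e-04). By this ratio Kcnt1 (25.5) stood above Kcnk9 and Kcna5 (17.5) above Kcnk10. The exact binomial intervals cover counting error only. In the Rbfox2 line Kcnk9 and Kcnk10 had 0 counts in both immature control libraries, and their few immature counts all came from the Rbfox1 line. In the Rbfox1 and the Rbfox2 line alone, the log2 fold change was 3.98 and 7.56 for Kcnk9 and 3.35 and 7.67 for Kcnk10. For Kcnmb3 it was 3.66 and 6.36. All 4 control mice showed the direction of these rises without overlap, and their size is held only within wide bounds.

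Potassium channel genes with more counts changed less. Kcnk6 (TWIK-2), a two-pore channel, had 36.3 to 82.9 CPM in immature and 159 to 190 CPM in mature mTEC of control mice, a 3.14-fold rise (log2 fold change 1.65, SE 0.09, adjusted p = 1.56e-11). Kcnh6 (an Erg channel) went from 4.88 to 27.4 CPM to 75.9 to 112 CPM, a 6.47-fold rise (log2 fold change 2.69, SE 0.16, adjusted p = 1.92e-11), and Kcnk16 (TALK-1, known from pancreatic beta cells) from 1.63 to 3.59 CPM to 19.0 to 22.5 CPM, a 7.23-fold rise (adjusted p = 6.32e-09). Kcnh3 rose 2.43-fold (adjusted p = 1.72e-08). For none of these 4 genes did the populations overlap. The log2 fold change of Kcnh6 was 2.23 in the Rbfox1 line alone and 3.16 in the Rbfox2 line alone. Kcnj15, the gene with the highest level, had 440 to 652 CPM in immature and 468 to 569 CPM in mature mTEC and was not called, with a log2 fold change of -0.13 (SE 0.08, adjusted p = 0.151). Kcnip3 and Kcnma1 had log2 fold changes of -0.47 and -0.68 and adjusted p = 0.000198 and 7.94e-07, short of the fold threshold.

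**Figure D3:**
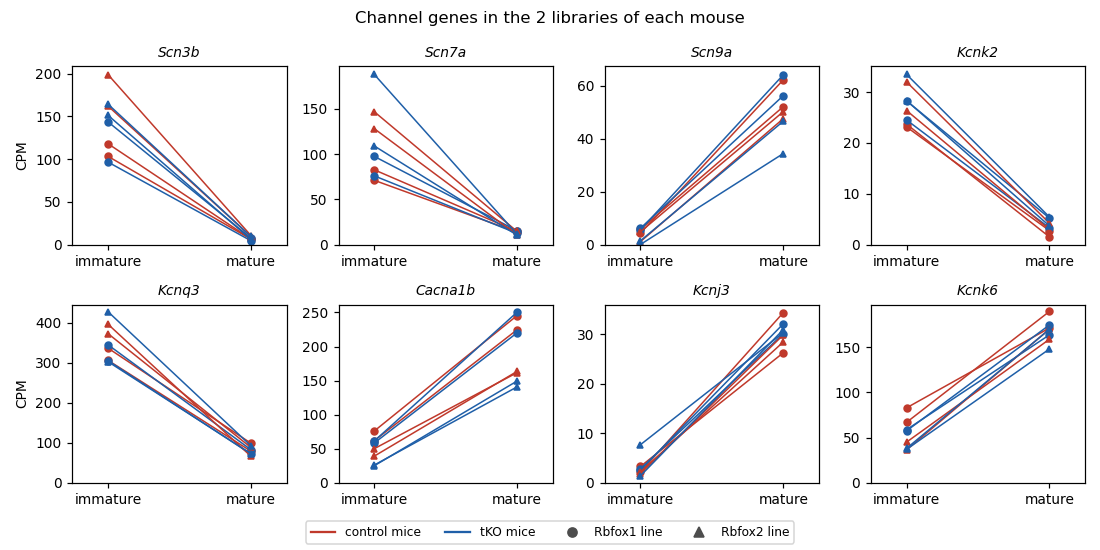
Level (CPM, TMM-scaled) of 8 channel genes in the immature and mature library of each mouse, joined by a line for each of the 4 control and 4 tKO mice, with symbols for the Rbfox1 and Rbfox2 lines. Scn3b, Scn7a, Kcnk2 and Kcnq3 are lower and Scn9a, Cacna1b, Kcnj3 and Kcnk6 higher in the mature library of all 8 mice.

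The largest fall among all channel genes was that of Scn3b (chr9:40269217-40291618, GRCm38, plus strand), a beta subunit that sets the surface level and inactivation of sodium channels in nerve and heart. It had 103, 118, 162 and 199 CPM in immature and 6.32, 6.399, 9.32 and 10.5 CPM in mature mTEC of control mice. The highest mature library stood far below the lowest immature one, and the fall was 17.6-fold (log2 fold change -4.14, SE 0.12, adjusted p = 1.18e-15). Scn2b, which has the same role in neurons, had 38.4 to 52.1 CPM and 15.8 to 23.7 CPM, 2.30-fold lower in mature mTEC (log2 fold change -1.20, SE 0.13, adjusted p = 2.28e-07). Scn4b lies next to Scn2b and had a log2 fold change of -0.63 (SE 0.13, adjusted p = 0.000376), which did not reach the fold threshold.

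The pore genes Scn7a and Scn9a lie side by side on chromosome 2, with Scn1a beyond them, and moved in opposite directions. Scn7a (chr2:66673425-66784914, GRCm38, minus strand) had 71.0, 82.7, 128 and 147 CPM in immature and 10.5, 13.7, 14.4 and 14.5 CPM in mature mTEC of control mice. It was 7.69-fold lower in mature mTEC (log2 fold change -2.94, SE 0.12, adjusted p = 9.65e-14). Scn9a (chr2:66480080-66634962, GRCm38, minus strand) had 1.08, 4.28, 4.79 and 5.72 CPM in immature and 47.5, 50.2, 52.0 and 62.2 CPM in mature mTEC, a 13.9-fold rise (log2 fold change 3.80, SE 0.21, adjusted p = 9.52e-12). Neither gene overlapped between the populations. Scn7a was higher in immature mTEC of the Rbfox2 line than of the Rbfox1 line, as were the fibroblast markers, and in the Rbfox1 line alone its log2 fold change was -2.43 (SE 0.17), against -3.45 (SE 0.17) in the Rbfox2 line. The same fits gave Scn3b log2 fold changes of -4.10 and -4.18.

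The sequence before the start of each of these neighbours is shown because their transcripts differ so in direction. Each is the 250 bases upstream of the RefSeq start on GRCm38.p6, read 5′ to 3′ on the strand of the gene (minus), with CpG dinucleotides in capitals. The window of Scn7a is chr2:66784911-66785160 and that of Scn9a chr2:66634963-66635212.
Scn7a: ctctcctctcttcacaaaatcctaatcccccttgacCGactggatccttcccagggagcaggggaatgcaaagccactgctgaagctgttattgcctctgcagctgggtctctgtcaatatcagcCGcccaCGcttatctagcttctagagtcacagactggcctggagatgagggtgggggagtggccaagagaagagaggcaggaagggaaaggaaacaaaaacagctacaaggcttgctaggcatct
Scn9a: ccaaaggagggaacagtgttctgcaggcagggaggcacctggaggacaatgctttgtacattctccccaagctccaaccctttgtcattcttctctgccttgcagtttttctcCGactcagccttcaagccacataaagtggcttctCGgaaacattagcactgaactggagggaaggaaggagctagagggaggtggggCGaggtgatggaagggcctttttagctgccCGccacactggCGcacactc
They hold 3 and 5 CpG, where the median over 32851 promoter windows of the same length is 6. The letters TATAAA, on either strand, are in neither window and in 12.4% of all windows. The letters GGGCGG, on either strand, are in the window of Scn7a and not in that of Scn9a, and in 32.7% of all windows. A match of one motif cannot overlap a match of the other. The promoter table had entries for 98 of the 133 channel genes, under 80%, so no comparison of promoters over the channel genes was made.

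Among the other sodium channel pores, Scn10a (Nav1.8 of pain-sensing neurons) and Scn4a (skeletal muscle) rose in mature mTEC. Scn10a had 5, 18, 19 and 31 counts in mature and 1 count in the 4 immature libraries together, a ratio of 34.0 with a counting interval of 5.91 to 1361 (adjusted p = 1.75e-04). The log2 fold change of Scn10a was 4.41 in the Rbfox1 line alone and 6.24 in the Rbfox2 line alone. Scn4a had 0.542 to 5.57 CPM in immature and 16.6 to 19.2 CPM in mature libraries, a 7.13-fold rise (log2 fold change 2.83, SE 0.27, adjusted p = 2.81e-08). Its log2 fold change was 1.77 in the Rbfox1 line alone and 3.89 in the Rbfox2 line alone. Scn2a was not called, with 2.17 to 5.99 CPM in immature and 0.979 to 3.37 CPM in mature mTEC (log2 fold change -0.97, adjusted p = 0.0545).

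In the calcium class, Cacna1b had 38.9, 49.9, 61.6 and 75.8 CPM in immature and 162, 163, 225 and 245 CPM in mature mTEC of control mice (chr2:24603887-24763152, GRCm38, minus strand). The populations did not overlap, and the rise was 3.55-fold (log2 fold change 1.83, SE 0.09, adjusted p = 2.39e-12). Both the mature and the immature libraries of the Rbfox2 line lay below those of the Rbfox1 line. Cacna1s rose 7.94-fold, from 2.86 to 4.88 CPM to 28.2 to 34.6 CPM (adjusted p = 1.83e-10), and Cacna2d2 3.91-fold, from 10.7 to 21.6 CPM to 50.4 to 68.5 CPM (adjusted p = 3.55e-09).

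The T-type pores, which open at low voltage, did not move alike. Cacna1i had 0 counts in immature and 19, 38, 41 and 57 counts in mature libraries of control mice and was at least 24.1-fold higher (adjusted p = 7.27e-07). Cacna1g had 1 to 7 counts in immature and 38 to 74 counts in mature libraries, a 9.33-fold rise (log2 fold change 3.22, SE 0.34, adjusted p = 1.24e-07), with 2.53 in the Rbfox1 line alone and 3.91 in the Rbfox2 line alone on the log2 scale. The difference between the lines was not tested. Cacna1h was not called, with 25.5 to 52.3 CPM in immature and 32.3 to 46.1 CPM in mature libraries (log2 fold change 0.04, 95% interval -0.23 to 0.30, adjusted p = 0.821). The gamma subunit gene Cacng5 had 116 counts in mature and 1 count in immature mTEC, a ratio of 54.0 with a counting interval of 9.51 to 2152 (adjusted p = 1.1e-06). On the log2 scale Cacng5 rose by 5.04 in the Rbfox1 line alone and by 6.98 in the Rbfox2 line alone. Cacnb3 had 72.5 to 95.9 and 123 to 142 CPM, without overlap, and a log2 fold change of 0.61 (adjusted p = 3.81e-06), short of the fold threshold.

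The same comparison in tKO mice used 8 other libraries of 4 other mice. It tested 89 channel genes and called 50 higher, 10 lower and 29 not, where 38.1% of 16578 rows were called, 26.3% higher and 11.9% lower. The fit on rows with at least 10 counts in all 8 of these libraries held 33 channel genes and called 7 higher and 8 lower, where 9.43% of 10792 rows were called higher and 10.8% lower. Of the 87 genes tested in both, 50 were called higher in both, 7 lower in both and none in opposite directions, and 80 had the same sign. Matching counts over all rows are not given here, so these numbers describe the channel genes alone. Of the 8 genes called lower in control mice, Scn2b was the exception in tKO mice, with a log2 fold change of -0.90 (adjusted p = 2.26e-06) below the fold threshold. Over the 87 genes the absolute difference between the 2 log2 fold changes had a median of 0.41 and a maximum of 4.02. Among the closer ones, Scn3b had log2 fold changes of -4.14 in control and -4.30 in tKO mice, Kcnq3 -2.08 and -2.09, and Kcnn3 -1.34 and -1.32. Cacng5 had 6.01 and 6.12, with 1 immature count in each genotype, so the size of its rise is uncertain in both. Kcnk1 and Scn2a were called lower in tKO mice only, and Kcnd1, Kcnip2, Kcnj16, Cacna1a, Cacna2d4 and Scn2b were called in control mice only. A call in one genotype and not in the other does not show a difference and the difference itself was tested over all libraries.

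**Figure D4:**
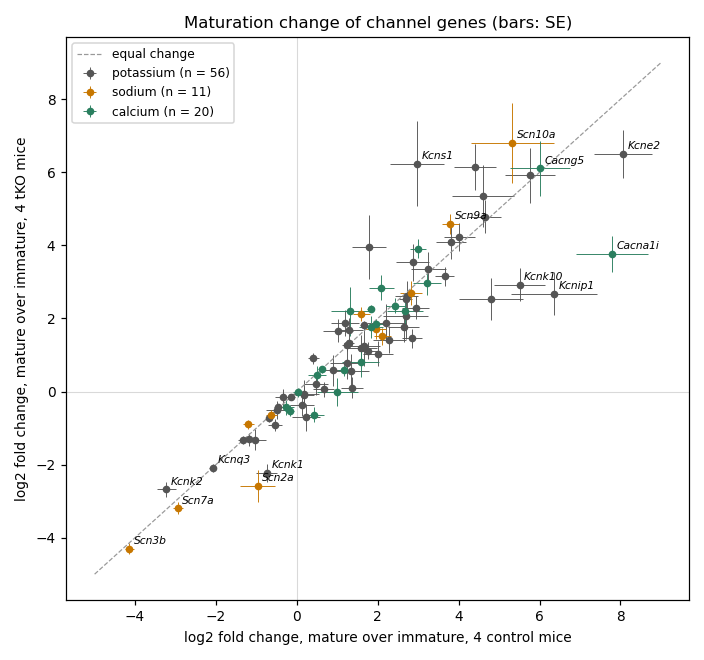
Log2 fold change of mature over immature mTEC in 4 control mice (horizontal) and 4 tKO mice (vertical), for the 87 channel genes tested in both, with bars of 1 SE and a dashed line of equal change. Genes with few immature counts, such as Cacna1i, Kcnip1 and Kcns1, lie farthest from the line.

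Neighbouring channel genes were not of one behaviour. With members at most 500 kb apart counted as neighbours, 53 of the 133 genes lay in 22 runs of 2 to 4 genes. Kcne2 and Kcne1 on chromosome 16 and Kcnk5 and Kcnk16 on chromosome 14 both rose, with log2 fold changes of 2.62 for Kcne1 and 2.71 for Kcnk5. On chromosome 11 the gamma subunit genes Cacng1 and Cacng5 were called higher (log2 fold change 1.32 for Cacng1) while Cacng4 between them was not called (0.50). Kcnj16 and Kcnj2, also on chromosome 11, had log2 fold changes of 1.36 and -0.54, the latter not called. The run of Scn7a, Scn9a and Scn1a was the one with genes called in both directions. Of the 133 channel genes, 64 overlap another annotated gene and 14 a protein-coding one, and their counts are uncertain to the extent of the overlap. Cacna1c shares 21166 bases with Dcp1b and Cacna1d 11921 with Dcp1a, whereas Cacna1h shares 158 with Tpsg1 and Kcnh3 1 with Mcrs1.

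Of 34 related genes (12 other cation channels of the same superfamily and 22 partners of these channels), 28 were tested in control mice, and 9 were called higher and 4 lower in mature mTEC. Over all rows of that fit, 26.8% were called higher and 11.1% lower. Dpp6, which binds Kv4 channels, had 229 ± 81.5 CPM in immature and 12.6 ± 1.99 CPM in mature mTEC (log2 fold change -4.12, adjusted p = 1.18e-15). Stac, a partner of L-type calcium channels, rose with a log2 fold change of 3.80 (adjusted p = 3.61e-09), and the sodium leak channel gene Nalcn with 3.66 (adjusted p = 2.1e-08). In tKO mice 11 of the related genes were called higher and 4 lower of 27 tested, where 26.3% and 11.9% of all rows were.

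Channel genes were then compared between tKO and control mice of each line. None was called in any of the 4 comparisons. In the Rbfox1 line Rbfox1 itself was not called either, and how far it was lost there is not known from these counts. In mature mTEC 100 channel genes were tested in each line, where 0.0166% of 18021 rows were called for Rbfox1 and 0.0277% for Rbfox2, and in immature mTEC 48 were tested, where 0.0306% and 0.0536% of 13060 rows were called. An unadjusted p under 0.05 was reached by 2 channel genes for Rbfox1 and 8 for Rbfox2 in mature mTEC, and by 7 and 5 in immature mTEC. Over all rows it was reached by 604 and 962 of 18021 in mature and by 770 and 816 of 13060 in immature mTEC. DESeq2 called none either. For 67 (Rbfox1) and 60 (Rbfox2) of the 100 genes in mature mTEC, and for 25 and 22 of the 48 in immature mTEC, the 95% interval of the log2 fold change lay within 1 in both directions, so that a 2-fold difference was outside it. For the other genes a change of this size was not detectable or not excluded at this depth with 2 mice per group.

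In mature mTEC of the Rbfox2 line the smallest p values were those of Kcna2, a delayed rectifier of axons, and Kcnj5, a G-protein-gated inward rectifier. Kcna2 had 63.6 and 48.2 CPM in control and 87.4 and 79.4 CPM in tKO mice, which did not overlap (log2 fold change 0.57, SE 0.13, adjusted p = 0.234). Kcnj5 had 25.6 and 27.2 CPM in control and 38.7 and 38.0 CPM in tKO mice (log2 fold change 0.53, SE 0.15, adjusted p = 0.471). Neither passed the test. In mature mTEC of the Rbfox1 line Kcnk2 had 2.74 and 1.49 CPM in control and 5.19 and 3.28 CPM in tKO mice, which did not overlap and did not pass (log2 fold change 0.9996, adjusted p of 0.9996 by edgeR).

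In immature mTEC of the Rbfox2 line Cacna1b had 49.9 and 38.9 CPM in control and 25.8 and 24.9 CPM in tKO mice (log2 fold change -0.80, SE 0.21, adjusted p = 0.353 by edgeR). Cacna1c, the L-type pore of heart and smooth muscle, had 7.05 and 8.39 CPM in control and 16.03 and 22.1 CPM in tKO mice (log2 fold change 1.32, SE 0.35, adjusted p = 0.357 by edgeR). The groups did not overlap for either gene and neither passed. The tKO libraries also had the highest endothelial marker sums of these 4, and the part of those cells was not tested. In the Rbfox1 line Kcnk1 (TWIK-1) had 5.57 and 6.12 CPM in control and 12.0 and 14.3 CPM in tKO mice (adjusted p = 0.681 by edgeR), and Scn2a had 4.71 and 3.67 CPM and 7.41 and 15.8 CPM (adjusted p = 0.730 by edgeR). Kcnk1 was also higher in immature tKO mTEC of the Rbfox2 line, with 9.22 and 12.0 CPM in control and 15.3 and 21.4 CPM in tKO mice (adjusted p = 0.736 by edgeR), so that the direction was the same in mice of both lines without passing the test in either.

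**Figure D5:**
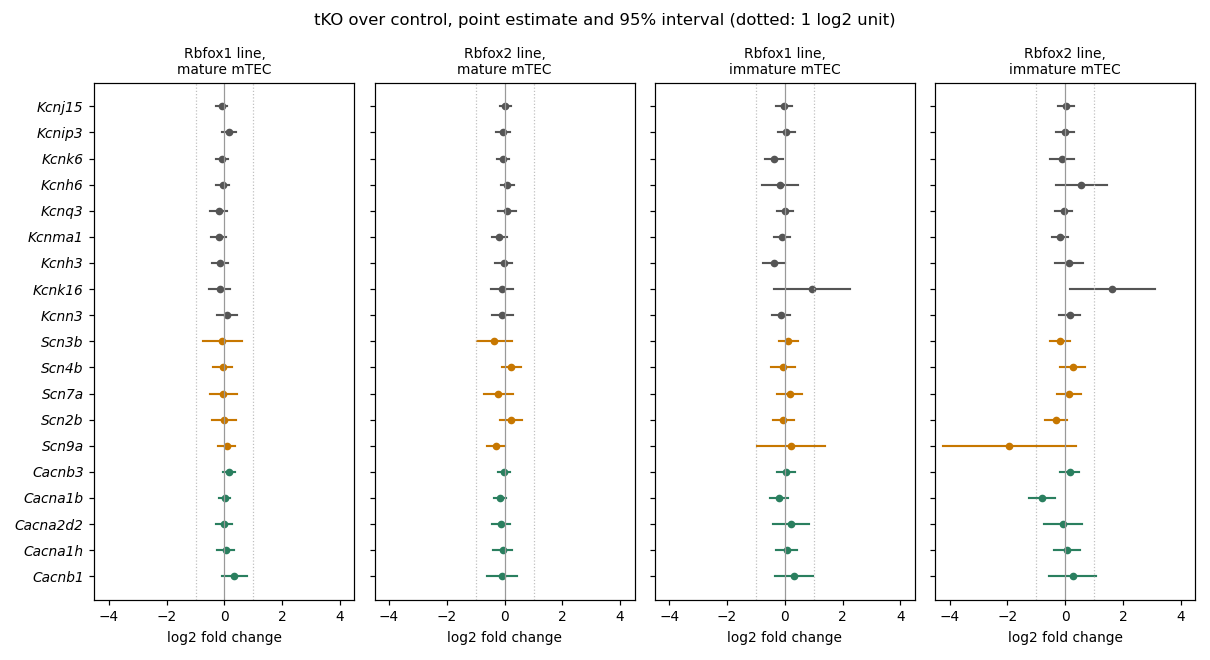
Log2 fold change of tKO over control mice with its 95% interval (edgeR) for the channel genes with the highest levels that were tested in all 4 comparisons, by line and population, with dotted lines at 1 log2 unit. Points of the 3 classes are grey (potassium), orange (sodium) and green (calcium). Intervals are wider in immature mTEC, and those of Kcnj15, Kcnip3, Kcnq3 and Cacnb3 lie within the dotted lines in all 4 comparisons.

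Whether the change from immature to mature mTEC itself differed between tKO and control mice was tested over all 16 libraries. None of the 97 channel genes tested passed, as 0% of 17442 rows did. An unadjusted p under 0.05 was reached by 12 of the 97 channel genes and by 907 of the 17442 rows. The smallest p was that of Kcnk1, with log2 fold changes of -0.74 in control and -2.23 in tKO mice and a difference of -1.50 (SE 0.36, adjusted p = 0.448 by edgeR). This test shares its libraries with the other comparisons.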

How the data were processed

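RNA-seq libraries of sorted mature and immature mTEC from 8 mice were compared. Per the labels, the authors worked with the aligner HISAT2 (2.1.0), with Picard (2.10.9) for duplicates, and with featureCounts (1.6.0), whose raw counts per gene they deposited. Per the file headers, duplicate and unmapped reads were removed and libraries were down-sampled to a fixed number of reads, larger in mature than in immature mTEC, which sets part of the difference in depth. The strand setting of the counting is not stated. Rows outside Ensembl came from the authors' transcript assembly. Of 89407 rows, 53464 carried Ensembl identifiers, and positions and exon lengths came from GENCODE on GRCm38. Depth and population went together, at 3737884 to 4636367 counts in mature and 1506134 to 2430287 in immature libraries, so detection was taken after thinning to 1506134 counts.

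All rows were tested with edgeR (4.0.16, R 4.3.3) by quasi-likelihood F-tests with TMM factors and a minimum count of 10 in its expression filter, Benjamini-Hochberg adjustment, and calls at an adjusted p under 0.05 and a log2 fold change beyond 1 (for the difference between genotypes in the mature-to-immature change, the adjusted p alone). Samples were grouped by line, genotype and population. Alternatives were DESeq2 (1.42.0), other filters and factors, thinning, a block for the mouse, each line alone and leaving out each library. Mature and immature libraries with a shared number came from the same mouse, and their deviations from the group means correlated at 0.0885 to 0.164. The members and gene lists were chosen with earlier results of these data known. Genes were named as the highest levels per class and population, the largest called changes and the 2 smallest p values in each tKO comparison. Some results under this rule are not reported here. Genes named for neighbours, detection or the difference between genotypes were picked with their values in view. The fits were tested on simulated data. Replicates are separate mice.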

Additional observations from a re-analysis of the deposited data

Results flagged for a closer look

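In 168 groups of 4 libraries of 1 population and genotype, 13 held a library far from the other 3 by Dixon's test of the gap over the range. For continuous values chance gives about 1 in 20, or 8.4. A group with 1 library above 3 at 0 has a gap equal to its range by construction, so this rate does not cover it. Values are CPM per kb of exon. Of these 13, 7 were single libraries with few counts beside 3 at 0, all in immature mTEC. In control mice they were Cacng5 at 0.106, Kcnmb3 at 0.250 and Scn10a at 0.0513, and in tKO mice Cacng5 at 0.121, Kcne2 at 0.391, Kcnk9 at 0.0753 and Kcnmb3 at 1.19.

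The other 6 had counts in every library. In immature control mTEC, replicate 2 of the Rbfox1 line had Cacnb1 at 5.01 against 2.87 to 2.91 in the others and Kcnn3 at 8.61 against 6.12 to 6.41, and replicate 3 of that line had Kcnip3 at 36.4 against 45.9 to 47.2. In immature tKO mTEC, replicate 2 of the Rbfox1 line had Kcna2 at 4.55 against 2.23 to 2.38. In mature mTEC, Kcnh1 stood at 1.11 against 1.63 to 1.72 in control replicate 1 of the Rbfox2 line, and Kcnip1 at 0.529 against 0.655 to 0.665 in tKO replicate 3 of the Rbfox1 line.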

How the results depend on the processing

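When 10 counts were required in each library, 6 channel genes were called higher in mature mTEC of control and 7 of tKO mice, where 29 and 33 were tested and 9.66% and 9.43% of all rows of those fits were called higher. By adjusted p alone, 13 of 93 and 17 of 89 tested channel genes were called lower, where 5099 of 16750 and 4854 of 16578 rows were. Leaving out 1 library left 1 library in its group, so numbers of calls from those fits of mature against immature mTEC are not given. With the mouse as a block, 57 channel genes were called higher and 8 lower in control mice, where 4481 and 1836 of 16750 rows were. In tKO mice this fit called 49 higher and 10 lower, where 4337 and 1948 of 16578 rows were. A block of the replicate number gave 0 calls of channel genes between tKO and control mice. For the difference between genotypes the block was the mouse, and 0 channel genes were called, where 49 of 17442 rows were. Each other alternative also called 0 channel genes in these comparisons. Without a filter on low counts, 23 of 51906 rows were called for the difference between genotypes. By the methods controls were littermates of the same sex, and tKO and control mice of a line that share a number share a sex, but no source ties the number to a litter. Over the 2 pairs of each line and population, their deviations correlated at 0.0357 to 0.147. Detection was 128.75 genes in mature libraries without thinning, and 85.0 in mature and 52.75 in immature libraries at 5 or more counts after thinning.

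Genes near 0 changed sign. In control mice Cacna1h had log2 fold changes of -0.0767 to 0.147 without 1 library and -0.222 in the Rbfox1 line alone, Kcnj15 0.0274 when 10 counts were required in each library and 0.0548 in the Rbfox1 line alone, and Kcnj5 -0.000918 there. In tKO mice Cacna1h had 0.0158 with DESeq2, 0.0148 with its size factors, 0.0354 without a filter, 0.113 when 10 counts were required in each library, 0.0892 after thinning, 0.192 in the Rbfox2 line alone and -0.0892 to 0.0534 without 1 library. With DESeq2 the difference between genotypes was -0.000152 for Cacng5 and -0.0045 for Kcnn3. None of these was called, and the cause was not tested. Values of each line alone came from the fit of all 8 libraries of a genotype, so filter, TMM factors and spread rested on both lines. They were chosen after seeing the data. Between tKO and control mice 48 channel genes could be tested in immature and 100 in mature mTEC, and the parts of lower depth and lower level in this were not separated.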
